A study of Mus musculus with 2 samples.

Results

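The enzymes that turn squalene into cholesterol were examined in mouse liver RNA profiled on 2 Affymetrix expression arrays. The genes were chosen by their place in the pathway, with earlier results of these data known. They are Sqle, Lss, Cyp51, Tm7sf2, Msmo1, Nsdhl, Hsd17b7, Ebp and Dhcr7. These are 9 of the 12393 genes that the arrays represent by a probe set with a single gene symbol, and 14 of 22626 probe sets. Of these genes, 6 have 1 probe set each, Hsd17b7 has 2, and Lss and Cyp51 have 3 each. All 9 genes gave a signal above the floor on both arrays in at least 1 probe set. The floor, an intensity of 35.6, is the 50th percentile of both arrays pooled and stands in for detection calls. One array came from animals on a high-fat diet supplemented with the unsaponifiable fraction of olive oil (titled orujo), and the other from animals on a high-fat diet supplemented with olive oil (titled olive), called the orujo array and the olive array here. Animals of both diets lack apolipoprotein E, a ligand through which the liver clears lipoprotein remnants, so neither array represents a liver with that protein. The sources used here give neither the sex, age and fasting state of the animals nor whether RNA of several animals was pooled. With 1 array per diet there is no replicate error, no test of the diets and no p-value, and each ratio compares these 2 arrays.

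Cholesterol is built from acetyl-CoA through mevalonate to squalene, and the enzymes described here carry out the steps that follow, most of them in the membrane of the endoplasmic reticulum. Squalene is first oxidised and folded into lanosterol, which then loses 3 methyl groups and has its double bonds moved and reduced. The genes are classic targets of SREBP-2, a membrane-bound transcription factor that is released to the nucleus when sterols in the endoplasmic reticulum are low. It binds sterol response elements in their promoters, usually beside sites for NF-Y (CCAAT boxes) and Sp1 (GC boxes). The unsaponifiable fraction of an olive oil is the part that is not fatty acid ester, and it is known to hold squalene, plant sterols and triterpenes.

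The RefSeq promoter table (GRCm38.p6) held windows from 250 bases before to 50 after a gene start for 8 of the 9 genes, 10 windows in all, of which 3 belong to Dhcr7. The 250 bases before the start are printed, 5′ to 3′ on the gene's strand, for the 3 genes with the highest ratios between the arrays by brightest probe sets and for Lss, whose ratio was near 0. Cyp51 lies on the minus strand (chr5:4104698-4104947), Tm7sf2 on the minus strand (chr19:6067851-6068100), Dhcr7 on the plus strand (chr7:143822917-143823166 for window 1 and chr7:143829964-143830213 for window 3), and Lss on the plus strand (chr10:76531355-76531604). Capitals mark matches, on either strand, to CCAAT, to GGGCGG, to CACGTG or to TCACNNCA, a relaxed form of the sterol response element.
Cyp51: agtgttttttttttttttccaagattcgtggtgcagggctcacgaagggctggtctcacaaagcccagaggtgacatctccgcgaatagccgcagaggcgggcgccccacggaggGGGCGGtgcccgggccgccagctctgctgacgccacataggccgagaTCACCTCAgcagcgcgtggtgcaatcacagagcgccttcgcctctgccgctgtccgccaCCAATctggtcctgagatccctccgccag
Tm7sf2: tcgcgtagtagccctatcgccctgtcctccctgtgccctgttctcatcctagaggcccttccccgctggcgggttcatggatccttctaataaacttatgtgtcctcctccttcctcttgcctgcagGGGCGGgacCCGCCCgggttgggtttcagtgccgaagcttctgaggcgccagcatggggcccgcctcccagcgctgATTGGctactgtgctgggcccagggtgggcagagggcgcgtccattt
Dhcr7 window 1: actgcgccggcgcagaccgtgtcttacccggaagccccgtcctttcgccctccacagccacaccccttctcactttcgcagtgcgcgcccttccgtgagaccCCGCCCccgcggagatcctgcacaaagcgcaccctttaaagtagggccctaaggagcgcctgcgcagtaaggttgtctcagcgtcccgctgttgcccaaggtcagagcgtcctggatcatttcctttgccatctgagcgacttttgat
Dhcr7 window 3: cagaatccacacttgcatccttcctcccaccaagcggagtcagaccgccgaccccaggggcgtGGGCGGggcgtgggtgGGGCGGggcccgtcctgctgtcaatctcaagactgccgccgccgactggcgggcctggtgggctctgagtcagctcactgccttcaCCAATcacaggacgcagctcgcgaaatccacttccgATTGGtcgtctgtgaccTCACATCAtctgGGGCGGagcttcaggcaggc
Lss: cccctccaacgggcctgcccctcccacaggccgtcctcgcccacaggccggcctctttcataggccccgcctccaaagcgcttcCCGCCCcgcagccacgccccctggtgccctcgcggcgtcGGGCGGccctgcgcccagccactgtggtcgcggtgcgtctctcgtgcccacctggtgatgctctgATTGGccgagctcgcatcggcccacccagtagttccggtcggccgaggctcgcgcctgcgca
Cyp51 holds TCACCTCA with its first base 88 bases before the start, and window 3 of Dhcr7 holds TCACATCA 32 bases before the start. Window 2 of Dhcr7, which overlaps window 1 and is not printed, holds TCACTTCA 130 bases and CACGTG 164 bases before its start. Tm7sf2 and Lss hold no match to the relaxed element in these windows, and each has 1 CCAAT box and 2 GC boxes.

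Across the 10 windows of the 8 genes, the relaxed element TCACNNCA was found in 6, against 11.2% of the 6985 windows of genes measured on both arrays. This form was picked after the promoter sequences had been read. The stricter TCACNCCAC was found in 0 of the 10, against 1.27% of those windows. CCAAT was present in 8 windows (37.5% of windows of measured genes), GGGCGG in 9 (62.3%) and CACGTG in 2 (10.2%). Hsd17b7, whose enzyme acts in the removal of the sterol's methyl groups, holds TCACCTCA at 117 bases before the start, the same 8 letters as Cyp51. In Msmo1 a CCAAT box and TCACTGCA overlap in the run CCAATCACTGCA. The matches describe the letters of these windows and give no evidence of binding.

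The first 2 enzymes after squalene had ratios below or near 0. Deposited intensities are given for each array, and a log2 ratio is orujo minus olive after both arrays were brought to the same trimmed mean, so a positive one means higher on the orujo array. Sqle encodes squalene epoxidase, which adds the oxygen that becomes cholesterol's hydroxyl group and is often named as the second rate-controlling enzyme of the pathway. Its deposited intensity was 151.2 on the orujo array and 191.7 on the olive array, which is 1.27-fold lower (log2 ratio −0.34). It was the lowest ratio of the 9 genes, and 17.4% of all measured genes had a lower one. Lss encodes lanosterol synthase, which closes the 4 rings of the sterol. Its brightest probe set read 106.4 on the orujo array and 107.0 on the olive array, a log2 ratio of −0.01. That probe set has a suffix that marks sequence shared with other transcripts. The other probe sets of Lss lay below the floor on both arrays, at 14.7 and 16.2 on the orujo array and at 19.0 and 10.9 on the olive array, so they give no ratio.

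The next 2 enzymes were both just over 2-fold higher by their brightest probe sets, as was Dhcr7 at the end of the pathway, and the order of the 3 changed with the scaling. Tm7sf2 encodes a sterol reductase that removes the double bond left by Cyp51, a task that the lamin B receptor can also perform. Its deposited intensity was 884.7 on the orujo array and 427.9 on the olive array, 2.07-fold higher (log2 ratio 1.05). Cyp51 encodes lanosterol demethylase, the cytochrome P450 that takes off the first methyl group. Its brightest probe set read 174.8 on the orujo array and 85.7 on the olive array, 2.04-fold higher (log2 ratio 1.03). The second probe set of Cyp51, annotated to the same transcript, did not show this difference: it read 33.5 on the orujo array, below the floor, and 36.3 on the olive array, just above it. Without the floor this pair would give a log2 ratio of −0.11. The third probe set of Cyp51 lay far below the floor, at 11.3 on the orujo array and 2.4 on the olive array. The Cyp51 ratio therefore comes from 1 of 3 probe sets.

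The 3 genes of the complex that strips the last pair of methyl groups all had positive ratios and none reached 2-fold, though Hsd17b7 was at −0.02 when the arrays were scaled to the hybridisation controls (bacterial and phage probe sets). Msmo1 encodes the methyl sterol monooxygenase, which oxidises the methyl group. It read 423.0 on the orujo array and 296.8 on the olive array, 1.43-fold higher (log2 ratio 0.51), from a probe set whose suffix marks more than 1 matching transcript. Nsdhl encodes the dehydrogenase that follows, and its X-linked mutations underlie CHILD syndrome in people and the bare patches and striated traits in mice. It read 317.7 on the orujo array and 249.9 on the olive array, 1.27-fold higher (log2 ratio 0.35). Hsd17b7 encodes the ketosteroid reductase that completes each round. Its brighter probe set read 300.7 on the orujo array and 246.5 on the olive array (log2 ratio 0.29). Its dimmer one read 86.9 on the orujo array and 58.3 on the olive array (log2 ratio 0.58). The 2 probe sets of Hsd17b7 had the same direction and differed by 0.29 log2 units. Hsd17b7 is the only one of the 9 genes with a second probe set above the floor on both arrays.

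The last enzymes were higher as well. Ebp encodes the sterol isomerase that moves a double bond within the ring system, and it read 992.9 on the orujo array and 682.8 on the olive array, 1.46-fold higher (log2 ratio 0.54). Dhcr7 encodes the dehydrocholesterol reductase whose substrate is also the precursor of vitamin D, and whose loss causes Smith-Lemli-Opitz syndrome in people. It read 170.3 on the orujo array and 84.2 on the olive array, 2.03-fold higher (log2 ratio 1.02). Dhcr7 thus lay as close to the 2-fold limit as Cyp51 and Tm7sf2.

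**Figure D1:**
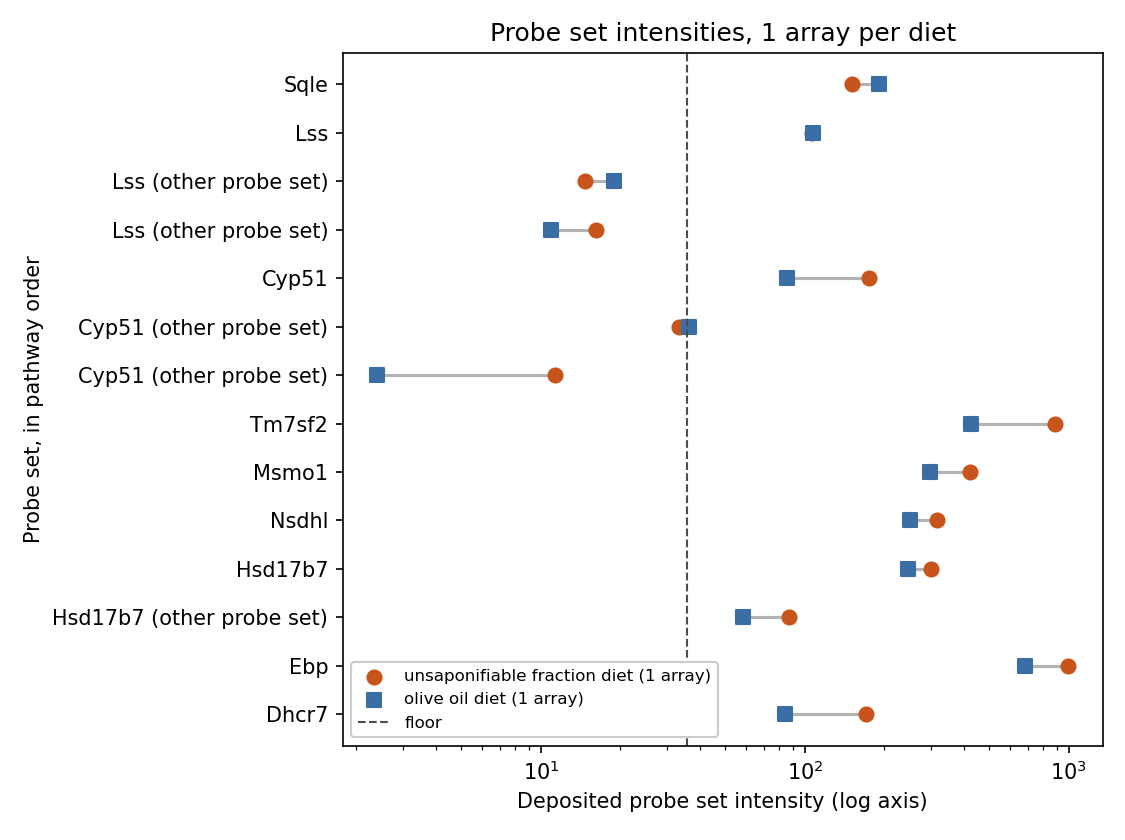
Deposited intensity (horizontal, log axis) of the 14 probe sets in pathway order from top to bottom, with circles for the orujo array, squares for the olive array and a dashed line at the floor of 35.6. The circle lies right of the square for every measured probe set from Cyp51 to Dhcr7, and left of it for Sqle. Probe sets differ in affinity, so levels are to be compared within a line only.

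Set in pathway order, the ratios were negative or near 0 at Sqle and Lss and positive at all 7 genes from Cyp51 on. The log2 ratios of these 7 lay between 0.29 and 1.05, with a median of 0.54. The cut at Cyp51 falls where the sign changes, so the shared sign of the 7 follows from the cut and was not tested. The 9 genes themselves were chosen with earlier results of these data known. They leave out other genes of the late pathway, which are given further below. With the arrays scaled to the hybridisation controls, Hsd17b7 was at −0.02 and the other 6 stayed positive. Over all 9 genes the median log2 ratio was 0.51, while over all 6640 measured genes it was −0.02. A measured gene is one whose brightest probe set is above the floor on both arrays. Of the 9 genes, 7 had a positive ratio, against 47.5% of all measured genes. Intensity was at least 2-fold higher on the orujo array for 3 of the 9, against 1.36% of all measured genes (90 of 6640). Intensity was at least 2-fold lower for 0 of the 9, against 0.979% of all measured genes. Among the 3068 measured genes whose mean intensity lay in the range of the 9, 1.5% were at least 2-fold higher, 1.34% were at least 2-fold lower and 48.6% had a positive ratio. All 3 genes past the limit were only just past it, at ranks 77 (Tm7sf2), 82 (Cyp51) and 86 (Dhcr7) of 6640 from the highest. With a 75th percentile floor, 1 of 7 measured enzymes was past the limit, against 1.48% of all measured genes. On the log2(value + floor) scale there were 0, against 0.843% of all measured genes. With the arrays scaled to the hybridisation controls there were 0, against 0.598%.

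**Figure D2:**
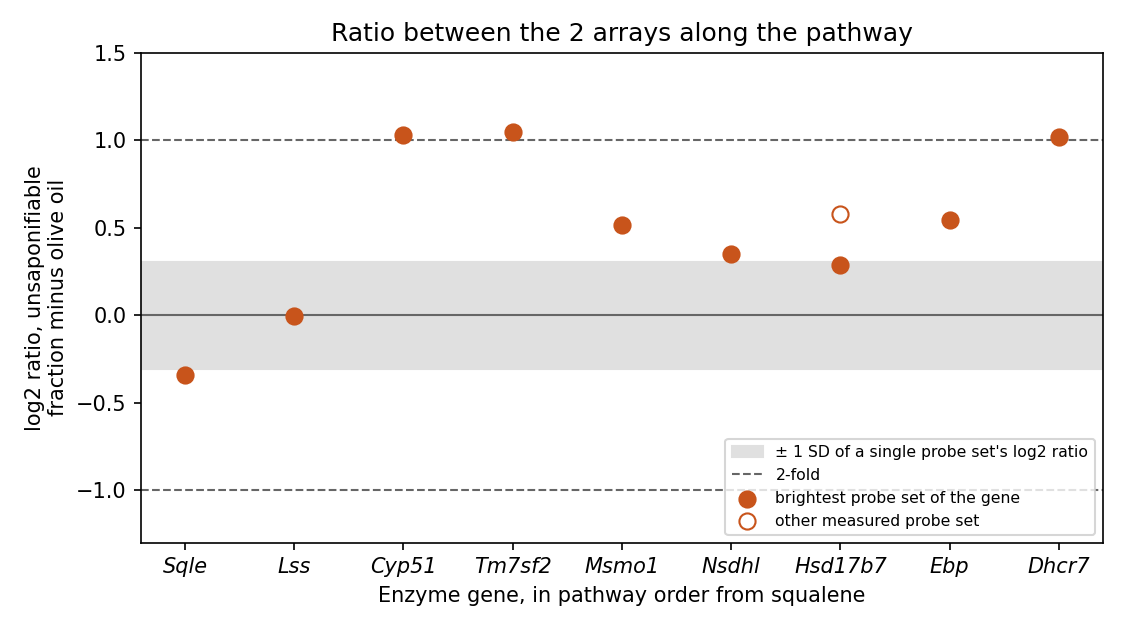
The log2 ratio of each measured probe set (vertical) along the pathway from squalene (horizontal). Filled points are the brightest probe set of a gene, the open point is the second probe set of Hsd17b7, the grey band is ± 0.30 (1 SD of a single probe set, measured between probe sets of the same gene) and the dashed lines mark 2-fold. Cyp51, Tm7sf2 and Dhcr7 sit at the upper dashed line, and Lss and the filled point of Hsd17b7 lie within the band.

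The only repeated measurement here is that of several probe sets of a gene on the same array. Over the 2057 genes with 2 measured probe sets, the 2 log2 ratios of a gene differed with an SD of 0.43, or 0.30 for a single probe set. It covers measurement noise and differences between probe sets, and no variation between animals. Of the 9 genes, 6 lay above this SD (17.2% of all measured genes did) and 1, Sqle, lay below minus 1 SD (19.9% of all measured genes did). Only Cyp51, Tm7sf2 and Dhcr7 lay beyond 0.61, which is 2 SD and which 5.08% of all measured genes exceeded. For 24 genes on the arrays the brighter of 2 measured probe sets was at least 2-fold higher. The second probe set was also above 0 in 19 of them and at least 2-fold higher in 10. Cyp51, Tm7sf2 and Dhcr7 each rest on a single measured probe set and have no such check.

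**Figure D3:**
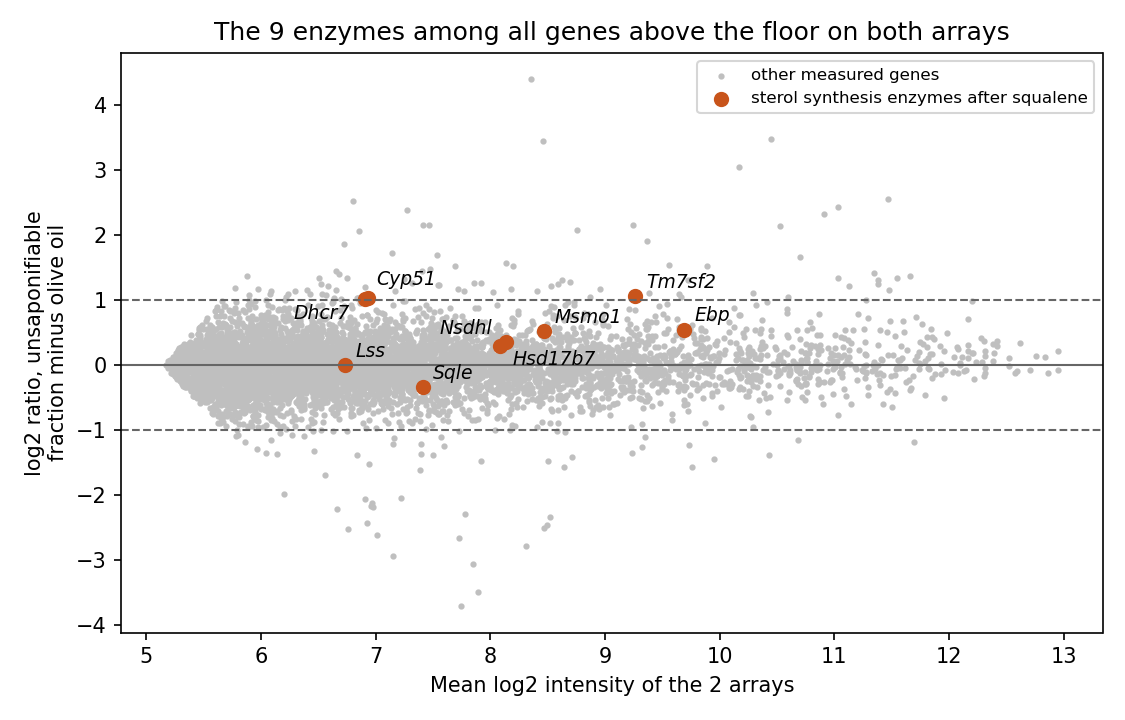
The log2 ratio (vertical) against the mean log2 intensity of the 2 arrays (horizontal) for the 6640 measured genes in grey, with the 9 enzymes in orange and dashed lines at 2-fold. Tm7sf2, Cyp51 and Dhcr7 lie at the upper edge of the cloud at their intensity, and Lss and Sqle lie inside it.

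Genes that feed or control these steps did not all share the direction. Of 10 listed genes of the mevalonate arm, which makes squalene, 8 have probe sets here and all 8 were measured. Of these, 4 had a positive and 4 a negative ratio, 0 passed 2-fold in either direction, and the median log2 ratio was 0.04. Fdps, farnesyl diphosphate synthase, was highest at 663.4 on the orujo array and 386.2 on the olive array (log2 ratio 0.78). Mvd, mevalonate diphosphate decarboxylase, was lowest at 47.8 on the orujo array and 90.9 on the olive array (log2 ratio −0.92), but its second probe set gave 0.37. Fdft1, squalene synthase, which makes the substrate of Sqle, read 262.3 on the orujo array and 268.0 on the olive array (log2 ratio −0.03). Its second measured probe set gave −0.29. Fdft1 was named outside the rule as the neighbour of Sqle. Whether the enzymes after squalene differ from those before it was not tested.

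Among other genes of the late pathway, 3 of 5 listed were measured and had a median log2 ratio of −0.10. Sc5d, the desaturase that acts between Ebp and Dhcr7, was highest at 0.21, with −0.08 in its second probe set. Erg28, a scaffold of the demethylation complex in yeast, was lowest at −0.19. Of 9 listed genes of SREBP control and sterol uptake, 5 were measured, with 3 positive ratios, 0 past 2-fold and a median of 0.28. Srebf2, which encodes SREBP-2, was highest at 110.9 on the orujo array and 67.6 on the olive array (log2 ratio 0.72) by brightest probe sets, and its second probe set gave 0.24. Insig2, which encodes a protein that holds SREBP in the endoplasmic reticulum, was named after its values were seen: its 3 measured probe sets gave 0.54, 0.78 and 0.98, of which the brightest gave 0.54. Mbtps1, a protease that cleaves SREBP, was lowest at −0.23 by brightest probe sets. Stard4, also named after its values were seen, gave −0.04 in its brightest probe set and −0.46 in its other one. Listed genes without a probe set of a single symbol were not analysed here.

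**Figure D4:**
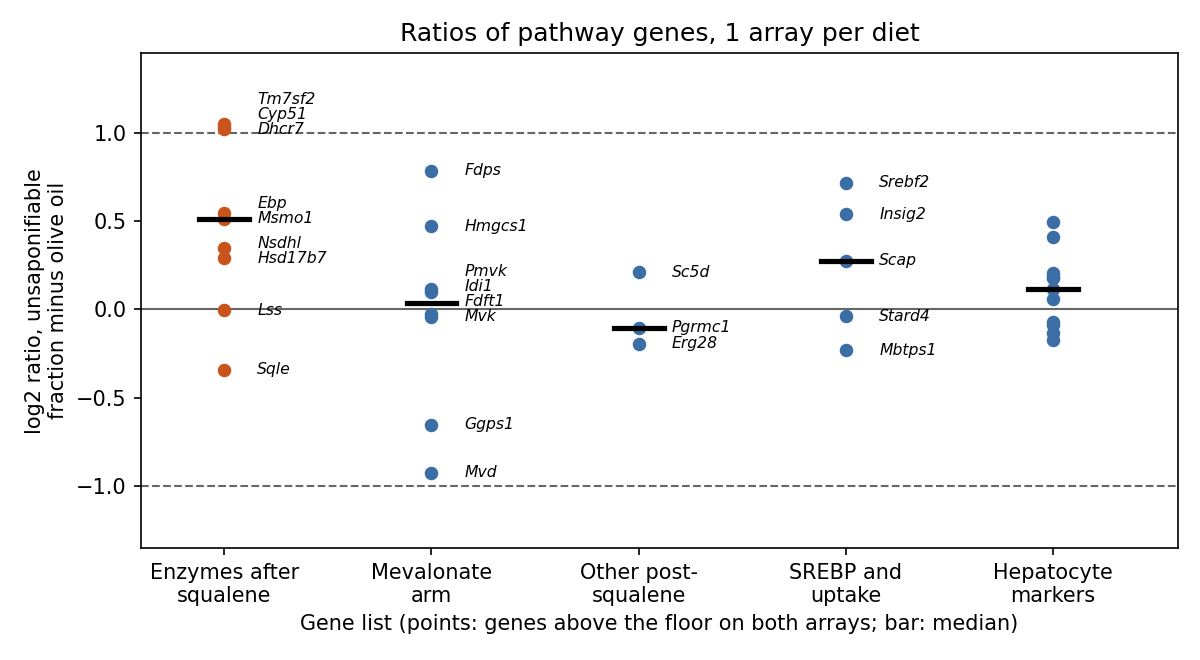
The log2 ratio (vertical) of each measured gene in the 9 enzymes after squalene, the mevalonate arm, other late pathway genes, SREBP control and uptake, and hepatocyte markers (horizontal), with black bars at the medians of 0.51, 0.04, −0.10, 0.28 and 0.12. The 3 highest points belong to the enzymes after squalene, and the mevalonate arm is spread over both directions.

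The arrays differed in more than the diet's label. The 11 hepatocyte markers with probe sets were all measured (median log2 ratio 0.12, summed intensity 63420 on the orujo array and 59654 on the olive array). All 10 exocrine pancreas markers with probe sets were lower on the orujo array, 8 of them measured with a median of −2.86, and their summed intensity was 688 on the orujo array and 5445 on the olive array. Neutrophil markers summed to 3673 on the orujo array and 722 on the olive array, and the deposited intensity of Lcn2 alone was 3304.6 on the orujo array and 400.9 on the olive array. Over the 5 measured neutrophil markers, Lcn2 included, the median was −0.03. Of these, Mmp9 was lowest at 39.2 on the orujo array and 78.6 on the olive array, and Mpo was at −0.40, Ngp at −0.03 and Elane at 0.34 on the log2 scale. A further 3 were above the floor on the orujo array alone, and Camp was below it on both. Macrophage markers had a median of 0.28 over 9 genes, endothelial markers 0.24 over 5 and stellate cell markers −0.0029 over 3. For 18S ribosomal RNA the control probe set near the 5′ end was at a log2 ratio of 2.54 and that near the 3′ end at 0.34. The 3′ to 5′ intensity ratio of Gapdh was 0.885 on the orujo array and 0.906 on the olive array, and that of Actb was 1.15 on the orujo array and 1.36 on the olive array. The 18 probe sets for bacterial and phage hybridisation controls had a median log2 ratio of 0.31, between −0.03 and 0.74. The part of these differences in the ratios of the enzymes was not tested, and in tissue RNA fewer cells of a type and less RNA per cell cannot be told apart. Apoe itself read 99.6 on the orujo array and 102.7 on the olive array. Since it is unknown here whether its probe set lies within the deletion, it checks neither label.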

How the data were processed

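Liver RNA was measured on 2 arrays, 1 per diet. Per the labels, targets were made from about 8 µg of total RNA by the manufacturer's standard procedure. The authors deposited linear intensities, 1 per probe set. How probe sets were summarised and which were called present is not stated in the labels. The 2% trimmed mean of the deposited intensities was 100 on both arrays, so they had been scaled to each other. Precision is limited by the number of arrays.

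Without the 64 control probe sets, the arrays were brought to the same 2% trimmed mean, which moved ratios by 0.0029 log2 units. Intensities under a floor, the 50th percentile of both arrays pooled (35.6), were raised to it before log2 was taken. The log2 ratio is orujo (unsaponifiable fraction) minus olive (olive oil). For each gene the probe set brightest on average was used. Symbols came from the platform annotation, and the identifiers of 20351 of 20380 single-symbol probe sets matched the RefSeq table (GRCm38.p6). The 2-fold limit is a size rule, not a test. The ratio calculation was tested on simulated data. Python 3.11.15, numpy 2.4.6 and pandas 2.3.3 were used. The genes, lists and rule were chosen with earlier results of these data known. The rule named the 9 enzymes with every probe set and, from each other pathway list, the highest and lowest measured gene and any past 2-fold. Alternatives were other scalings, floors, probe set rules and limits.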

Additional observations from a re-analysis of the deposited data

How the results depend on the processing

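The count of 3 enzymes at least 2-fold higher was the same under no further scaling, median centring, quantile normalization and loess. Between 1.32% and 1.42% of all measured genes were at least 2-fold higher under these. No further scaling moved ratios by only 0.0029 log2 units. The count could not fall with a 25th percentile floor, the mean over measured probe sets or without probe sets of shared sequence, and was 3. In these settings 2.1%, 1.19% and 1.31% of all measured genes were at least 2-fold higher. Cyp51, Tm7sf2 and Dhcr7 each have 1 measured probe set, without a shared suffix, so their ratios stayed the same there. A 1.5-fold limit cannot lower the count either. With it the count was 3, and 5.57% of all measured genes (370 of 6640) were at least 1.5-fold higher. A floor at the 75th percentile left 1, since Cyp51 and Dhcr7 were below it on the olive array. The count was 0 with log2(value + floor), which shrinks ratios (Tm7sf2 0.99, Cyp51 0.80, Dhcr7 0.78). It was 0 with a 3-fold limit, against 0.301% of all measured genes at least 3-fold higher. In alternatives chosen after seeing the data, it was 0 with the arrays scaled to the hybridisation controls, and 2 with the mean over probe sets above a 25th percentile floor, where Cyp51 was at 0.46. The count at least 2-fold lower was 0 in all 12 alternatives.

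The median of the measured enzymes was 0.20 when scaled to the hybridisation controls and lay between 0.35 and 0.54 in the other 10 alternatives. Both ends of that range rest on 7 enzymes: 0.35 with the 75th percentile floor, without Cyp51 and Dhcr7, and 0.54 without probe sets of shared sequence, which drops Lss and Msmo1. That scaling moved the median of all measured genes to −0.32 and put Hsd17b7 at −0.02. The gap between the enzymes' median and that of all genes was 0.53 in the reported fit. It was 0.52 when scaled to the hybridisation controls, a rescaling that moves both medians nearly alike. The gap was 0.35 with the 75th percentile floor, 0.48 with log2(value + floor) and 0.57 without probe sets of shared sequence. Of 6640 measured genes, 90 were at least 2-fold higher (1.36%) and 65 lower. Scaled to the hybridisation controls, the counts were 39 (0.598%) and 208 of 6525. They were 198 (2.1%) and 220 of 9448 with the 25th percentile floor, and 51 (1.48%) and 27 of 3446 with the 75th. With log2(value + floor) they were 56 (0.843%) and 40 of 6645. The number of measured genes differs between settings, so the counts alone are not to be compared. No paired analysis was possible because each diet has 1 array.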
